A study of Mus musculus with 4 samples.

Results

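The Hedgehog pathway was followed through 9 genes in whole mouse embryos at embryonic day 9.5 that lacked Cop1 or belonged to a control group. The genes were the ligand gene Shh, the receptor gene Ptch1, the ligand-binding inhibitor gene Hhip, the signal transducer gene Smo, the inhibitor gene Sufu, the transcription factor genes Gli1, Gli2 and Gli3, and the mesodermal target gene Foxf1. They were measured by 23 of the 45037 Affymetrix probe sets tested, namely all probe sets annotated with one of these symbols alone, and 9 of 18193 genes carry these names. The Cop1KO group was 1 pool of RNA from 6 Cop1-null embryos. The group labelled wild-type was 1 pool of RNA from 6 control embryos that were either +/+ or +/- for Cop1. Each pool was divided in 2, and each portion went onto 1 array, so that there were 4 arrays of 2 pools. All embryos came from one stage and were lysed whole. Which allele removes Cop1, and the sexes of the embryos, are left unstated by the labels.

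Hedgehog ligands are secreted proteins that bind Patched on receiving cells. In their absence Patched holds Smoothened inactive at the primary cilium, and Sufu and protein kinase A keep the GLI proteins restrained or cut them into repressors. Binding of ligand frees Smoothened, and full-length GLI proteins then switch on targets that include Ptch1, Hhip and Gli1 themselves. At this stage Shh is made by the notochord, the floor plate of the neural tube and the gut endoderm, and its signal patterns the ventral neural tube, the sclerotome, the gut mesoderm and, later, the limb buds.

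The values are log2 expression values (RMA), and differences are Cop1KO minus wild-type. A rise or a fall needed an adjusted p under 0.05 in limma and a fold of at least 1.5, which is 0.58 on the log2 scale. Because the arrays of a genotype are portions of 1 pool, SDs and p-values measure only the spread between portions, and all statements compare 2 pools. Over all probe sets, Pearson's r was 0.998 within either pool and 0.980 to 0.982 across the pools. Cop1 itself read 9.67 and 9.77 on the Cop1KO arrays, against 11.35 and 11.26 on the wild-type arrays, a difference of -1.58 (SE 0.08, limma, adjusted p = 0.000728). Whether its probe set lies inside the deleted part is not known here. In whole embryos fewer cells of a type and less RNA per cell cannot be told apart.

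By the brightest probe set of each gene, 1 of the 9 Hedgehog genes passed both limits, at a share near that of all genes. This gene, Sufu, fell, and 0 rose (limma), which is 11.1% of them called, against 11.6% of all 18193 genes (8.06% fell and 3.58% rose). Smo and Shh also had an adjusted p under 0.05, but their differences lay under the fold limit. Counting the adjusted p alone gave 3 of 9 genes (33.3%), all lower in the Cop1KO pool, against 33.9% of all genes. By unadjusted p under 0.05 the counts were the same, 3 lower and 0 higher. At that limit 6 of the 23 probe sets were lower and 4 higher. The shares over all genes and all probe sets at that limit were not taken, so these counts have nothing to be set against. The median difference over the 9 genes was -0.10, against -0.02 over all genes. Among the 23 probe sets 1 fell and 0 rose (4.35% called), against 13.7% of all probe sets (6.96% fell and 6.76% rose), and 7 had an adjusted p under 0.05 (30.4%), against 32.7%. These shares lay close to or under those of the whole table.

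**Figure D1:**
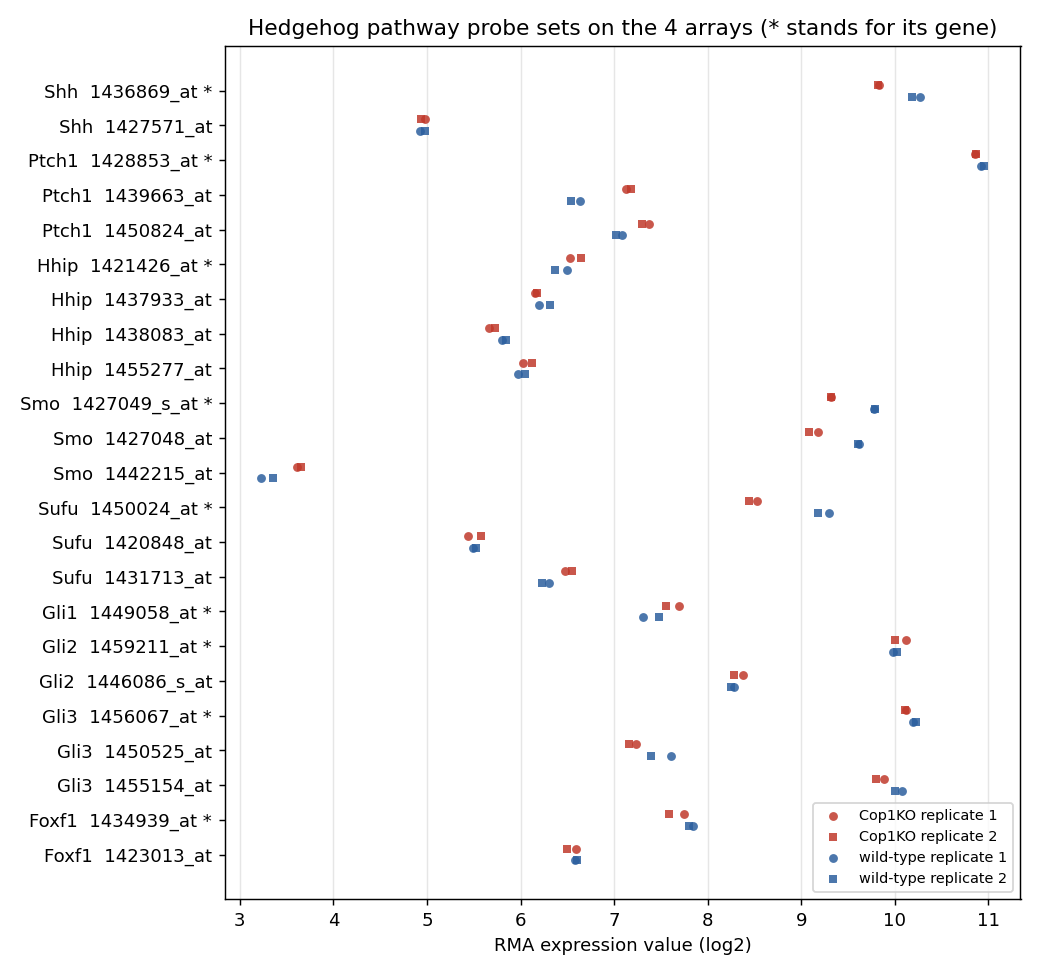
RMA expression values (log2, horizontal axis) of the 23 probe sets of the Hedgehog genes on the 2 Cop1KO arrays (red) and the 2 wild-type arrays (blue), with circles for replicate 1 and squares for replicate 2. An asterisk marks the probe set with the highest mean, which stands for its gene. Arrays of one pool lie close together, and the pools are plainly apart for Sufu 1450024_at, for the 2 bright probe sets of Smo and for the bright probe set of Shh, all lower in Cop1KO, and for Ptch1 1439663_at, higher in Cop1KO.

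Sufu, which binds GLI proteins and restrains them, had the greatest difference of the 9. Its probe set 1450024_at read 8.53 and 8.44 on the Cop1KO arrays and 9.30 and 9.18 on the wild-type arrays. Every Cop1KO value lay below every wild-type value. The means were 8.48 ± 0.06 in the Cop1KO pool and 9.24 ± 0.08 in the wild-type pool (SD, n = 2 portions). Sufu thus fell by 0.76 on the log2 scale (1.69-fold, SE 0.08, 95% interval -0.95 to -0.56, limma, adjusted p = 0.0029). The other 2 probe sets of the gene did not show this. Probe set 1420848_at, which the annotation derives from the same source sequence, read 5.44 and 5.57 on the Cop1KO arrays, against 5.49 and 5.53 on the wild-type arrays, and the pools overlapped. Probe set 1431713_at read 6.47 and 6.55 on the Cop1KO arrays, against 6.31 and 6.23 on the wild-type arrays, which is 0.24 higher (adjusted p = 0.0559). When the 3 probe sets were averaged, the difference of Sufu was -0.17 (adjusted p = 0.062) and the call was lost.

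Smo encodes the membrane protein that carries the signal into the cell. Its probe set 1427049_s_at read 9.32 and 9.31 on the Cop1KO arrays, against 9.78 and 9.79 on the wild-type arrays, and 1427048_at, derived from the same source sequence, read 9.18 and 9.08, against 9.62 and 9.60. The pools did not overlap on either. The differences were -0.47 (adjusted p = 0.00555) and -0.48 (adjusted p = 0.00725), or 1.39-fold and 1.40-fold lower in the Cop1KO pool, both short of the fold limit. The third probe set, 1442215_at, lay among the dimmest 40% of all probe sets. It read 3.61 and 3.65 on the Cop1KO arrays, against 3.23 and 3.36 on the wild-type arrays, and differed the other way (0.34, adjusted p = 0.0251).

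Shh, the ligand gene, read 9.83 and 9.83 on the Cop1KO arrays, against 10.27 and 10.18 on the wild-type arrays (1436869_at). The pools did not overlap, and the difference was -0.40 (1.32-fold, SE 0.07, 95% interval -0.57 to -0.22, limma, adjusted p = 0.012), under the fold limit. The other probe set, 1427571_at, was among the dimmest 40%. It read 4.98 and 4.93 on the Cop1KO arrays, against 4.92 and 4.98 on the wild-type arrays, and the pools overlapped.

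Ptch1, both the receptor and a standard readout of pathway activity, gave different answers by probe set. The brightest, 1428853_at, read 10.85 and 10.86 on the Cop1KO arrays, against 10.92 and 10.96 on the wild-type arrays, without overlap. The difference was -0.08 (95% interval -0.24 to 0.08, adjusted p = 0.388). Probe set 1439663_at read 7.12 and 7.18 on the Cop1KO arrays, against 6.64 and 6.54 on the wild-type arrays. It was 0.57 higher (1.48-fold, adjusted p = 0.00519), just under the fold limit, and passed it without Cop1KO replicate 1 (0.60, adjusted p = 0.035) or without wild-type replicate 1 (0.62, adjusted p = 0.0308). Probe set 1450824_at read 7.37 and 7.30 on the Cop1KO arrays, against 7.09 and 7.02 on the wild-type arrays, 0.28 higher (adjusted p = 0.0339). Averaged over its 3 probe sets, Ptch1 was 0.26 higher in the Cop1KO pool (adjusted p = 0.0161), so the sign for the gene depends on the probe set. Which parts of the transcript these probe sets cover is not known here.

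Gli1, which GLI activity itself switches on, has 1 probe set. It read 7.70 and 7.56 on the Cop1KO arrays, against 7.31 and 7.48 on the wild-type arrays. Both Cop1KO values were the higher ones, but one of them lay close to the upper wild-type value, and the difference of 0.23 (SE 0.09, 95% interval -0.01 to 0.47) missed the threshold (limma, adjusted p = 0.124). Hhip, a membrane protein gene that binds the ligand and is also a target, had 4 probe sets with differences of 0.15, 0.06, -0.09 and -0.13 and adjusted p-values between 0.207 and 0.586. The one that stands for the gene read 6.53 and 6.64 on the Cop1KO arrays, against 6.50 and 6.37 on the wild-type arrays, slightly higher with no overlap. Neither of these targets of the pathway passed a limit in either direction.

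Gli2, the main activator in the embryo, read nearly alike in both pools. Its probe set 1459211_at read 10.12 and 10.01 on the Cop1KO arrays, against 9.98 and 10.03 on the wild-type arrays, and the pools overlapped. The difference was 0.06 (95% interval -0.13 to 0.25, adjusted p = 0.583), and the second probe set, from the same source sequence, also gave 0.06 (adjusted p = 0.552). Gli3, which acts mostly as a repressor, was measured by 3 probe sets, and all 3 differences were below 0. The one that stands for the gene, 1456067_at, read 10.12 and 10.11 on the Cop1KO arrays, against 10.20 and 10.23 on the wild-type arrays (-0.10, adjusted p = 0.29), with no overlap. The others gave -0.20 (adjusted p = 0.0921) and -0.30 (adjusted p = 0.0634), and the mean over the 3 gave -0.20 (adjusted p = 0.0483), under the fold limit.

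Foxf1, a forkhead factor gene that responds to Hedgehog ligand in the mesoderm around the gut, read 7.74 and 7.59 on the Cop1KO arrays, against 7.85 and 7.80 on the wild-type arrays. Both Cop1KO values were lower, and 1 lay close to the wild-type ones. The difference was -0.16 (95% interval -0.37 to 0.05, adjusted p = 0.208). Its second probe set gave -0.04 (adjusted p = 0.679) with overlapping pools.

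**Figure D2:**
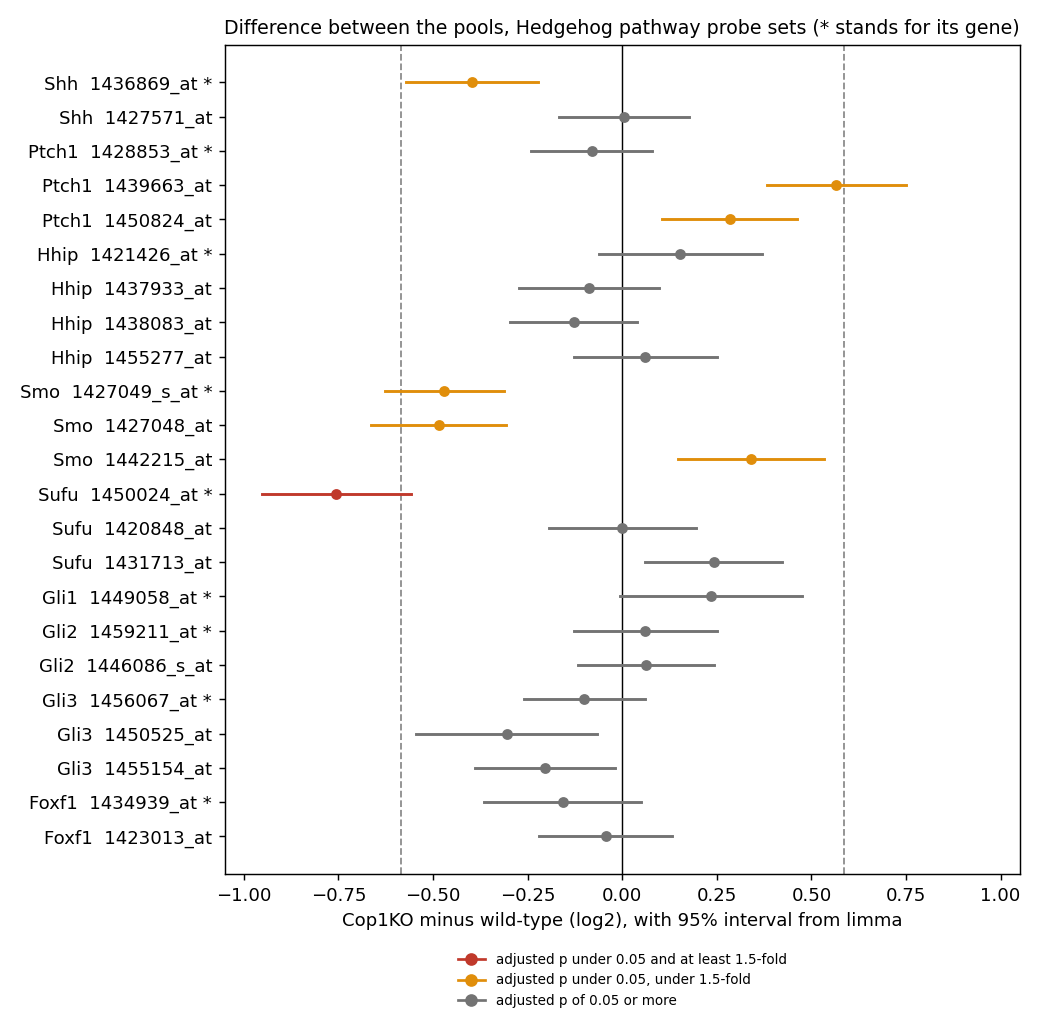
Difference between the pools (Cop1KO minus wild-type, log2, horizontal axis) for the same 23 probe sets, with limma's 95% interval. Dashed lines mark 1.5-fold. Red stands for Sufu 1450024_at, the probe set past both limits, orange for the 6 with an adjusted p under 0.05 and a smaller fold, and grey for the others.

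To place the genes whose probe sets differed most, the 250 bases before the RefSeq transcript start (GRCm38.p6) are shown for Sufu, Smo and Ptch1, with GC boxes (GGGCGG on either strand) in capitals. Sufu lies on the + strand (chr19:46396646-46396895), Smo on the + strand (chr6:29735247-29735496) and Ptch1 on the - strand (chr13:63565736-63565985). Each is written 5′ to 3′ on the strand of its gene.
Sufu: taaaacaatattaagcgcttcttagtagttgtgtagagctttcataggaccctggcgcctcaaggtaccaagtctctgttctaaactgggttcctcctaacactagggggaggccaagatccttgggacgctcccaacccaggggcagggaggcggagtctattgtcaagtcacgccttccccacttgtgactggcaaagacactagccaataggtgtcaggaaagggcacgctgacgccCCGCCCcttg
Smo: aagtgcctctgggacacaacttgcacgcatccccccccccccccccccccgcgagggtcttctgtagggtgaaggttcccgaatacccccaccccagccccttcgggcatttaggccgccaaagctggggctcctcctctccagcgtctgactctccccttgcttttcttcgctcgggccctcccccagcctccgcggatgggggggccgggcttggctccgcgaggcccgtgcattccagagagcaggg
Ptch1: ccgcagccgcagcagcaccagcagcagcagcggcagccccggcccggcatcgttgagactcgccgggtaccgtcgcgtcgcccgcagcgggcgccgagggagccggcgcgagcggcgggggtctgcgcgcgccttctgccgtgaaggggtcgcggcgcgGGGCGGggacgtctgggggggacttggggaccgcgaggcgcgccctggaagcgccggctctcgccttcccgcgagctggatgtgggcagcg

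Such windows were found for 6 of the 9 genes, Gli2, Gli3 and Hhip being the others, while Shh, Gli1 and Foxf1 had none in the table. The GC content was 54% for Sufu, 68.4% for Smo, 78.4% for Ptch1 and 67.2% to 76% for the other 3, against a median of 52.4% over all 32851 windows. Sufu held 8 CpG dinucleotides, Smo 15 and Ptch1 41, against a median of 6. A GC box was found in 5 of the 6 windows, Smo being the one without, and in 32.7% of all windows. The GLI consensus GACCACCCA on either strand was in 0 of the 6 and in 0.225% of all windows. The motif TGANTCA of AP-1 (6.75% of all windows), the core CCGGAAG of ETS factors (6.91%) and the hypoxia response core ACGTG (16.6%), each searched on both strands, were in 0 of the 6 as well. The cyclic AMP response element TGACGTCA was in that of Hhip and in 1.55% of all windows. These letters describe the windows only.

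Around these genes, 50 others of the pathway were listed and 47 measured. Of these, 2 rose and 4 fell (12.8% called, against 11.6% of all genes), with a median of -0.04, against -0.02 over all genes. By adjusted p alone 22 of 47 passed (46.8%), against 33.9%. Among 8 measured genes of ligands and ligand release, 1 fell, Disp1, whose product lets the lipid-bound ligand leave the cell. Disp1 read 7.25 and 7.17 on the Cop1KO arrays, against 7.86 and 7.91 on the wild-type arrays (-0.68, SE 0.07, limma, adjusted p = 0.00284), but its other probe set rose. The other ligand genes, named after their values were seen, both lay among the dimmest 40% of probe sets. Dhh differed by -0.56 (adjusted p = 0.00421), just under the fold limit, and Ihh by -0.11 (adjusted p = 0.335).

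Of 9 receptor and surface genes 1 fell, against 8.06% of all genes. This was Gpr161, a receptor of the cilium that raises protein kinase A activity and so holds the pathway down. It read 7.27 and 7.36 on the Cop1KO arrays, against 8.48 and 8.37 on the wild-type arrays (-1.10, 2.15-fold, SE 0.08, adjusted p = 0.0013), and its other probe set was not called. Among 14 genes of GLI processing 1 fell, against the same 8.06%. This was Prkaca, the catalytic subunit gene of protein kinase A. Prkaca read 9.57 and 9.38 on the Cop1KO arrays, against 10.22 and 10.33 on the wild-type arrays (-0.79, SE 0.09, adjusted p = 0.00417), and its other probe set fell too.

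Cilium transport genes went both ways, with 2 rises and 1 fall among 16, against 3.58% and 8.06% of all genes, and a list median of 0.06. Ift172 (0.74, adjusted p = 0.00198), a subunit gene of the transport trains in cilia, and Kif3a (0.66, adjusted p = 0.0025), a motor subunit gene, rose. Kif3b, which encodes the partner of Kif3a in the same kinesin, read 6.65 and 6.68 on the Cop1KO arrays, against 7.43 and 7.35 on the wild-type arrays, and fell (-0.73, adjusted p = 0.00223). Of the other 3 probe sets of Kif3b, 2 fell as well, while none of the other 3 of Kif3a was called. The rises of Ift172 (0.49, adjusted p = 0.0586) and Kif3a (0.40, adjusted p = 0.131) missed the limits when the arrays were centred on their poly-A spikes.

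**Figure D3:**
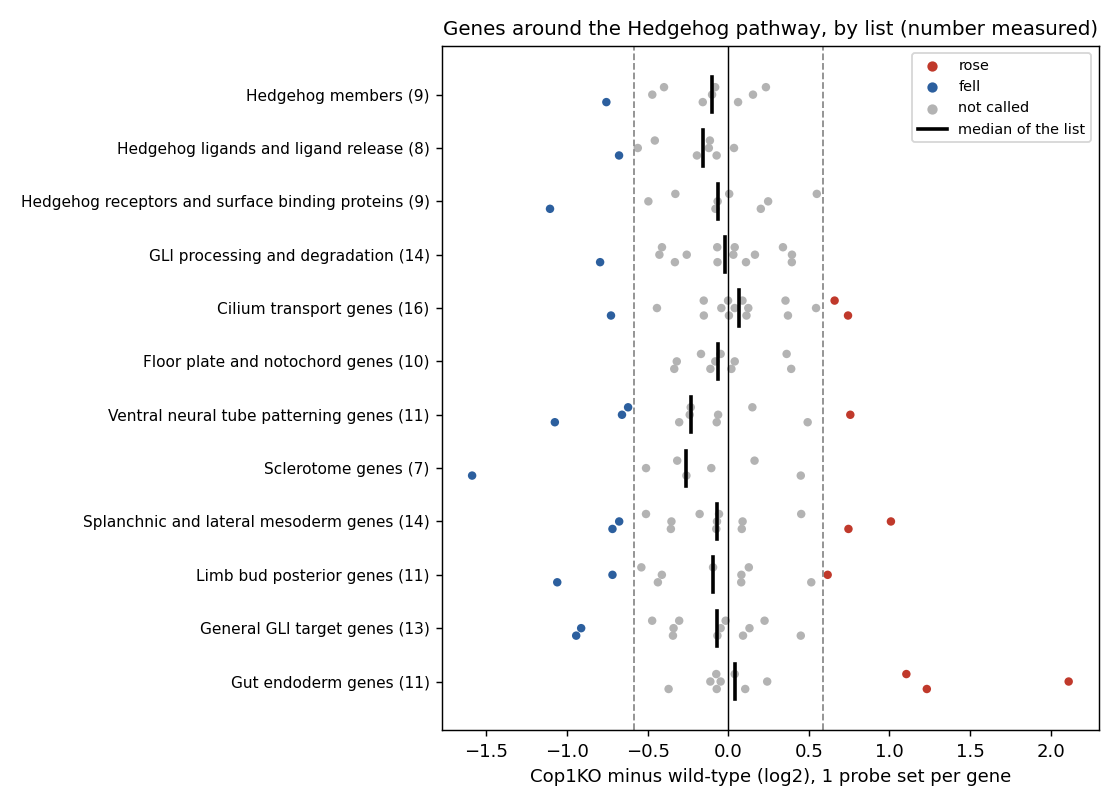
Difference between the pools (Cop1KO minus wild-type, log2, horizontal axis) for each gene of the lists around the Hedgehog pathway, 1 probe set per gene, with the number measured in brackets. Red points rose, blue points fell, grey points were not called, black bars are medians and dashed lines mark 1.5-fold. The medians lie between -0.26 and 0.06.

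Tissues that make the ligand were compared through their marker genes. Of 10 measured genes of floor plate and notochord, 0 were called (limma), against 11.6% of all genes. At an unadjusted p under 0.05 there were 2 higher and 2 lower, and the share of all genes at that limit was not taken. The greatest differences were those of Nkx2-9 (0.39, adjusted p = 0.0289), a homeobox gene of the ventral neural tube, and Nog (0.36, adjusted p = 0.0239), a BMP antagonist gene. Foxa2, named after its value was seen, is a forkhead factor gene of floor plate, notochord and endoderm. It read 7.74 and 7.66 on the Cop1KO arrays, against 7.67 and 7.83 on the wild-type arrays, and the pools overlapped (-0.05, adjusted p = 0.726). The values of the list, summed on the linear scale, were 2823 and 2864 on the Cop1KO arrays and 2850 and 2818 on the wild-type arrays.

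In gut endoderm 3 of 11 genes rose and 0 fell, against 3.58% of all genes that rose, and the median difference of the list was 0.04, with 6 genes above 0 and 5 below. The 3 were Krt19 (2.11, adjusted p = 0.000549), a keratin gene, Sox17 (1.23, adjusted p = 0.00139) and Hhex (1.10, adjusted p = 0.00133), factor genes that endothelial cells express too. Endothelial genes gave 4 rises among 9, against the same 3.58%: Flt1 (1.80), Kdr (0.74), Pecam1 (0.72) and Esam (0.63), with adjusted p-values between 0.000727 and 0.00299, of which Kdr, Pecam1 and Esam missed the limits with poly-A spike centring (0.49, 0.46 and 0.38). The linear sums of that list were 3798 and 3851 on the Cop1KO arrays and 2681 and 2601 on the wild-type arrays. The median difference of the endothelial list was 0.37, with 8 genes above 0 and 1 below. The linear sums of the endodermal list were 3351 and 3198 on the Cop1KO arrays and 2171 and 2229 on the wild-type arrays, and without Krt19 they were 2258 and 2173 in Cop1KO and 1930 and 1980 in wild-type. The part of endothelial RNA in the endodermal rises was not tested.

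Tissues that receive the signal were read through their own genes. In the ventral neural tube list 3 genes fell and 1 rose among 11, against 8.06% and 3.58% of all genes, with a list median of -0.23. The list was not divided by how Hedgehog signal acts on each gene. Its median therefore has no direction with respect to the pathway. Dbx1, an interneuron progenitor gene, read 7.39 and 7.52 on the Cop1KO arrays, against 8.49 and 8.57 on the wild-type arrays (-1.07, adjusted p = 0.00136). Olig2, the gene of motor neuron progenitors, read 6.70 and 6.56 on the Cop1KO arrays, against 7.35 and 7.15 on the wild-type arrays (-0.62, adjusted p = 0.0107). Sim1, a marker gene of the most ventral interneurons, fell by 0.66 (adjusted p = 0.0064), and its other probe set was not called. Nkx6-2, another progenitor gene, rose (0.76, adjusted p = 0.0139). Olig2 missed the limits without Cop1KO replicate 2 (-0.55, adjusted p = 0.0703) or wild-type replicate 1 (-0.52, adjusted p = 0.0549), Sim1 without Cop1KO replicate 2 (-0.56, adjusted p = 0.0326) or wild-type replicate 2 (-0.65, adjusted p = 0.0513). Nkx6-2 missed them without either Cop1KO replicate (0.78 and 0.74), without wild-type replicate 1 (0.57, adjusted p = 0.0333) or with poly-A spike centring (0.50, adjusted p = 0.0503). Nkx2-2, named after its value was seen as the factor gene nearest the floor plate, was lower by less than 1.5-fold (-0.30, adjusted p = 0.0286).

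Of 7 sclerotome genes 1 fell and 0 rose, against 8.06% and 3.58% of all genes, with a list median of -0.26. Pax1, which the sclerotome switches on under Hedgehog signal, read 5.95 and 6.18 on the Cop1KO arrays, against 7.58 and 7.73 on the wild-type arrays (-1.59, SE 0.11, limma, adjusted p = 0.00123), and its other probe set was not called. Splanchnic and lateral mesoderm divided, with 2 rises and 2 falls among 14 (median -0.07), against 3.58% and 8.06% of all genes. Bmp4, a signal gene of the gut and lateral mesoderm, read 10.08 and 10.05 on the Cop1KO arrays, against 9.07 and 9.03 on the wild-type arrays (1.01, 2.01-fold, SE 0.06, adjusted p = 0.00106). Gata6 rose as well (0.75, adjusted p = 0.00297), though with poly-A spike centring it missed the limits (0.49, adjusted p = 0.0569). Hand2 (-0.72, adjusted p = 0.00491) and Wnt2 (-0.68, adjusted p = 0.0029) fell, but neither other probe set of Hand2 was called.

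In the limb bud list 2 genes fell and 1 rose among 11, against 8.06% and 3.58% of all genes (list median -0.09). Tbx2 read 6.96 and 7.10 on the Cop1KO arrays, against 8.06 and 8.12 on the wild-type arrays (-1.06, adjusted p = 0.00143). Hand2 is the fall it shares with the mesoderm list. Alx4 rose (0.62, adjusted p = 0.018) but missed the limits without Cop1KO replicate 2 (0.49), wild-type replicate 1 (0.72) or wild-type replicate 2 (0.51), with adjusted p-values between 0.0512 and 0.0952, with quantile normalization once more (0.54, adjusted p = 0.0206) or with poly-A spike centring (0.36, adjusted p = 0.186). Of 13 general GLI target genes 2 fell and 0 rose (median -0.07), against the same 8.06% and 3.58%. At an unadjusted p under 0.05 there were 6 lower and 2 higher. Ccnd1, the gene of cyclin D1, read 10.47 and 10.47 on the Cop1KO arrays, against 11.35 and 11.41 on the wild-type arrays (-0.91, adjusted p = 0.00132), and another of its 3 probe sets fell. Osr2 (-0.94, adjusted p = 0.00295) lay among the dimmest 40% of probe sets, and its other probe set was not called. Over the floor plate and all target lists, without the 9 Hedgehog genes, 4 genes rose and 9 fell among 62 (21% called), against 11.6% of all genes, and the list genes are also expressed in cells outside the reach of Hedgehog ligand.

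**Figure D4:**
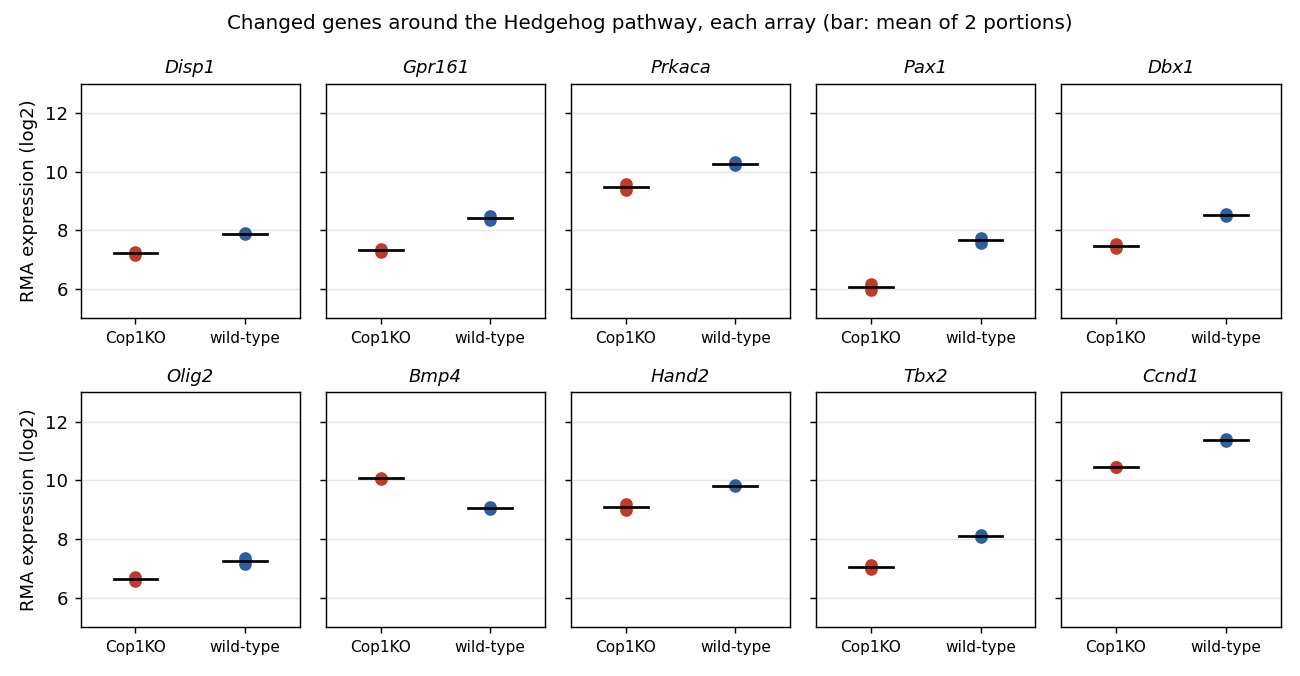
RMA expression (log2, vertical axis, cropped at 5 and 13) of 10 called genes around the pathway on each array, Cop1KO in red on the left and wild-type in blue on the right, with bars at the mean of 2 portions. The 10 were picked from the called genes. Bmp4 is the one of them that is higher in the Cop1KO pool, and called rises such as Ift172, Kif3a, Nkx6-2 and Gata6 are not shown. The pools overlap in none of the 10, which adds nothing to their calls.

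The scaling of the arrays bears on the small differences. RMA brings the arrays near to one distribution. The deposited values still had medians of 6.10 and 6.09 on the Cop1KO arrays and 6.03 and 6.03 on the wild-type arrays. Quantile normalization once more gave 9 other pathway genes called (4 rises and 5 falls), against 6. The poly-A spikes added to the RNA read a median of 7.52 and 7.71 on the Cop1KO arrays and 7.23 and 7.49 on the wild-type arrays. The spike gap between the pools, 0.26, was about that between the wild-type portions, also 0.26. Centring on the spikes moved the median of all genes to -0.28, and by the same step every Hedgehog gene. Sufu (-1.01, adjusted p = 8.69e-06), Smo (-0.73, adjusted p = 0.0023) and Shh (-0.65, adjusted p = 0.00709) were then past both limits. Relative to the median of all genes their distances stayed as before. Gli1 (-0.02), Gli2 (-0.19) and Hhip (-0.10) changed sign under it without a call, and Ptch1 1439663_at stood at 0.31 (adjusted p = 0.264). Centring adds the spike gaps between portions (0.20 in Cop1KO and 0.26 in wild-type) alike to every probe set. Adjusted p-values with spike centring, here and above, are therefore not comparable with those of the main fit.

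**Figure D5:**
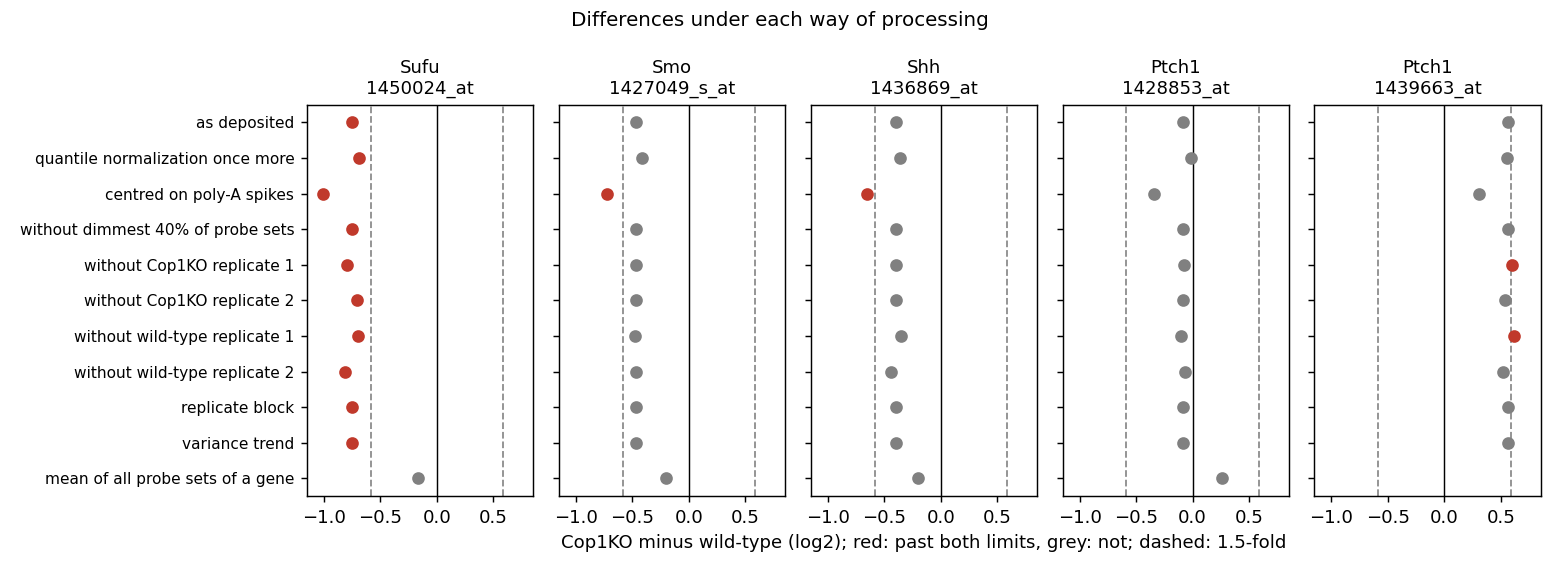
Difference between the pools (Cop1KO minus wild-type, log2, horizontal axis) for 5 probe sets of Sufu, Smo, Shh and Ptch1 under each way of processing, from the deposited values at the top to the mean of all probe sets of a gene at the bottom. Red points are past both limits, grey points are not, and dashed lines mark 1.5-fold. Sufu keeps its call in all tested settings shown except the mean over probe sets, where it stands at -0.17.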

How the data were processed

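RNA of 6 embryos per genotype was pooled, and 2 portions of each pool were hybridised to Affymetrix arrays, per the labels. The authors deposited log2 expression values computed by RMA (affy), as listed in the submitters' processing notes without versions. RMA corrects background, equalises the distributions of the arrays and combines probes, which hides any change in the total RNA of an embryo. The values were used as deposited. Of 45101 probe sets 64 controls were left out. Probe sets with 1 annotated gene (34945) named 18193 genes, and 34741 of them matched the RefSeq table by gene number. The probe set of highest mean over the arrays stood for its gene.

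limma 3.58.1 in R 4.3.3 (lmFit, eBayes, genotype as the only term) was fitted to all 45037 probe sets, with Benjamini-Hochberg adjustment over all of them. The number of arrays limits the precision. Simulated arrays, drawn from the observed means and portion spread over 45037 probe sets, served as a test. The fit called 48% of 50 simulated 1.5-fold changes, which lie on the fold limit, and 100% of 50 simulated 2-fold changes, with 3 false calls. The simulated arrays held no spread between pools or embryos, so this test gives no rate of false calls for genotype. The Hedgehog genes and lists were chosen with earlier results of these data known. Named were the 9 genes, Cop1 and, per list, up to 4 called genes of largest difference, or 2 where none was called. Dhh, Ihh, Foxa2 and Nkx2-2 were named outside this rule. No search for genes of like pattern was made, as 4 arrays of 2 pools give each gene 1 difference. Promoter windows came from RefSeq (GRCm38.p6).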

Additional observations from a re-analysis of the deposited data

How the results depend on the processing

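Besides the fit reported, 11 alternatives were run. Leaving out 1 array at a time gave 1961 to 2066 called genes and 5551 to 5921 called probe sets over the whole table, against 2119 and 6178, with 1 Hedgehog gene (Sufu) called each time, 1 to 2 Hedgehog probe sets and 6 to 7 other pathway genes. The lone array of a genotype was then taken to vary like the other group. Poly-A spike centring gave 3780 genes, 339 of them rises (8.97% of calls, against 30.8%), and 20.5% rises among probe sets, against 49.3%. It also gave 3 Hedgehog genes, 4 of their probe sets and 11 other pathway genes, all falls, against 6 with 33.3% rises. Averaging all probe sets of a gene gave 0 Hedgehog genes past both limits in limma, and 1783 of 18193 genes over the whole table. Of the 9 Hedgehog genes, 4 passed by adjusted p alone and 6 by unadjusted p (2 higher, 4 lower). The share of all genes that passed by p alone was not taken in this setting, so these counts have nothing to be set against. Same-numbered arrays of the 2 pools deviated together with r = 0.06 over probe sets, so the numbers were not taken to pair them. With the replicate number as a block the counts were 2102 genes, 6097 probe sets, 1 Hedgehog gene and 6 other pathway genes, and among the genes named here Alx4 lost its call (adjusted p = 0.0509). The counts moved by at most 1.5 times under repeated quantile normalization, without the dimmest 40%, with a variance trend, and with portions averaged and called by fold alone (2138 genes). Over all alternatives the Hedgehog probe sets kept their side of the limits in 231 cases, passed them newly in 5 and lost a call in 1. The arrays give no detection calls, so dim probe sets such as Smo 1442215_at have no stated background.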

Other observations

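Markers of tissues attached to the embryo were also read. For this list and those that follow, the shares over all genes were 8.06% that fell and 3.58% that rose. Of 10 visceral yolk sac genes 3 fell and 1 rose in the Cop1KO pool. Ttr (-1.53, limma, adjusted p = 0.00077) and Afp (-1.01, adjusted p = 0.00106), carrier protein genes of yolk sac and early liver, fell. The fibrinogen gene Fgb fell too (-0.77, adjusted p = 0.0046). The endocytic receptor gene Cubn rose (1.45, adjusted p = 0.0126), and its other probe set was not called. The call of Cubn was lost without either Cop1KO replicate (adjusted p = 0.081 and 0.0802). The linear sums of the list were 2738 and 2704 on the Cop1KO arrays and 4852 and 4983 on the wild-type arrays, and without Afp they were 900 and 909 in Cop1KO and 1239 and 1257 in wild-type. The median difference of the list was -0.06, with 4 genes above 0 and 6 below. Of 8 primitive blood genes 2 fell, Klf1 (-0.79, adjusted p = 0.00329) and Epb42 (-0.68, adjusted p = 0.00407). Of 6 measured trophoblast and decidua genes, 4 lay among the dimmest 40% of probe sets, and Ascl2 rose (0.64, adjusted p = 0.0315), a call lost without either Cop1KO replicate, without wild-type replicate 2, with quantile normalization once more (0.57) and with poly-A spike centring (0.38). The linear sums of that list were 222 and 197 on the Cop1KO arrays and 183 and 188 on the wild-type arrays. The part of these tissues in the Hedgehog gene values was not tested.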
